A study of Rattus norvegicus with 4 samples.

Results

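Breaks that cut both strands of DNA are sensed and mended by a small set of proteins, and the transcripts of 9 of their genes were examined in macrophages exposed to titanium dioxide. The genes were listed by symbol: Xrcc5, Xrcc6 and Prkdc of end joining, the kinase genes Atm, Atr, Chek1 and Chek2 of the checkpoint, and Brca1 and Brca2 of homologous recombination. Their probes were found through the accession printed with each probe. Of the 9 genes, 7 had a probe with a matching accession, out of 16579 named genes on the arrays, and these 7 genes had 12 probes. Atr and Prkdc had no matching probe and have no value here.

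The cells were NR8383, a rat alveolar macrophage line started from lung lavage of a normal rat, at passage 20. All 4 cultures (replicates 1 to 4) carried the same treatment, 3 cm2 of the TiO2 material NRCWE001 per cm2 for 4 h, and each was measured on its own 1-colour array. Unexposed cells, which the series' design also names, were not analysed here, so no effect of the particles on a transcript can be read from these values. A culture and its array cannot be told apart, and in RNA of whole cultures fewer cells making a transcript cannot be told apart from less RNA per cell.

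At a broken DNA end, the ring of Ku70 and Ku80 (Xrcc6 and Xrcc5) binds first and recruits the kinase DNA-PKcs (Prkdc), which leads to direct rejoining. Where the end is cut back instead, BRCA1 and BRCA2 serve repair by homologous recombination, in which the sister chromatid is copied. The kinases ATM and ATR signal the damage, and pass it on through CHK2 and CHK1 (Chek2 and Chek1), which hold the cell cycle. The kinases are switched on by modification of the protein, so a transcript level is not a measure of the pathway's activity.

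Array brightness, as the 75th percentile of processed signals, was between 388 and 614 intensity units, over local backgrounds with medians of 36 to 41 units, and 15314 to 16708 probes per array were well above background. A probe is called detected on an array where the scanner software marked it as well above background. Levels are log2 signals relative to that percentile, taken over all non-control spots of the same array, and are given as mean ± SD over 4 arrays (n = 4), and no probe's level is set against another probe's. The level of a dim probe depends on the background correction. With normexp, which adds an offset of 50 units, Chek2 lay at -1.80 in place of -2.51 and the brighter Xrcc5 probe A_44_P1160074 at 1.87 in place of 2.05. No spot of the 12 probes was saturated or marked as an outlier, and each probe had 1 spot per array. Macrophage markers were found on every array in 10 of 12 cases, among them Cd68 (4.46 ± 0.13), Csf1r (-0.69 ± 0.09) and Mrc1 (-2.50 ± 0.30), while Adgre1 and Marco were not. Of 13 measured markers of epithelium, lymphocytes, granulocytes, fibroblasts and endothelium, the endothelial gene Cdh5 (-4.27 ± 0.29) was the only one detected on all 4 arrays. The lymphocyte gene Cd3d was detected on 3 arrays, the epithelial gene Sftpa1 on 1, and the other 10 on none.

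Every array showed the transcripts of 5 of the 7 measured genes, namely Xrcc5, Xrcc6, Chek2, Brca1 and Brca2. The share was 45.7% over all genes, and no test was run on so few genes that had been picked. Atm was detected on 1 array and Chek1 on none. Where 1 array sufficed 6 of 7 genes were counted (51.8% of all genes), with the weaker flag of a positive and significant signal all 7 were (55% of all genes), and with probes beyond column 72 of the array alone 4 of 6 were (44.1% of all genes). By probe, 7 of the 12 were detected throughout, 1 on a single array and 4 on none. Of all probes 31.8% were detected throughout. That share includes probes without a symbol (24489 of 45598), so it is not like for like. Between arrays, 6 of the 7 detected probes had a smaller SD than limma's prior SD for probes of like level. That of Brca1 was larger, although it did not pass the test. The median of all detected probes lay below this prior too, at 0.208 near a level of -2.504, where the prior SD of Chek2 was 0.236. The share of all detected probes below the prior was not counted.

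**Figure D1:**
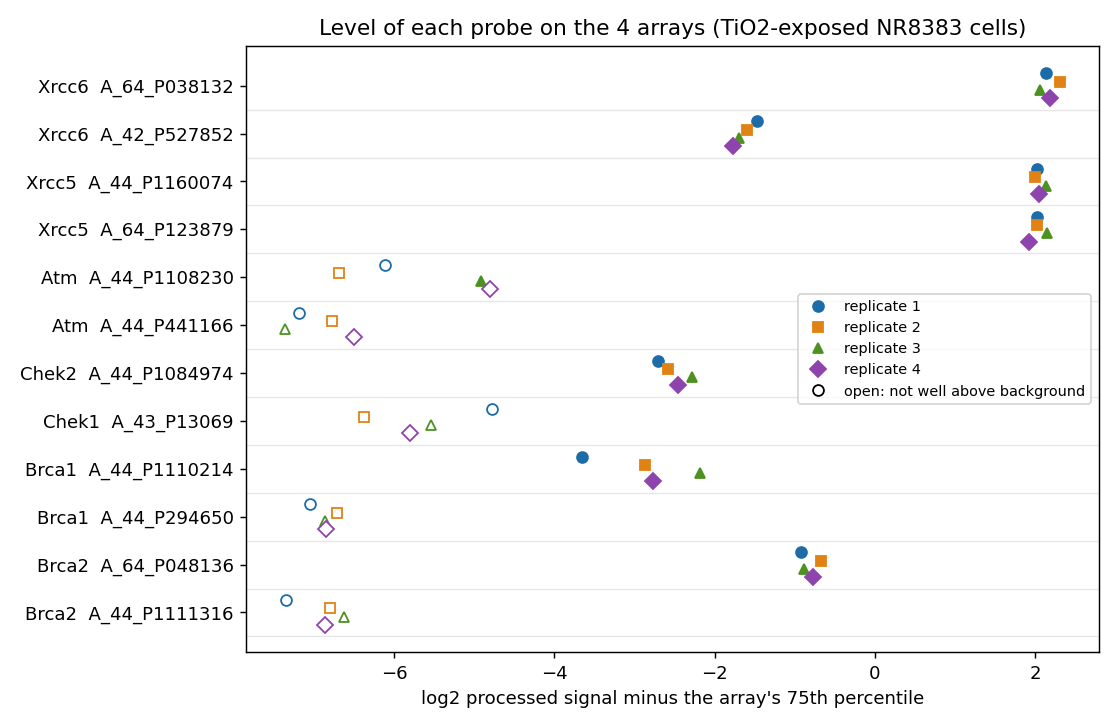
Level of each of the 12 probes (rows, with gene and probe name) on the 4 arrays, on the log2 scale relative to the 75th percentile of the same array. Colour and shape mark the replicate, and open symbols mark arrays on which the probe was not well above background; the points of Xrcc5 nearly coincide, while those of Brca1 probe A_44_P1110214 spread over 1.48.

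The Ku genes gave even signals with all 4 probes, of which 3 lay above the 75th percentile of the arrays and 1, of Xrcc6, below it. Xrcc5, which codes for Ku80, had processed signals of 1947, 1548, 2705 and 1932 units on replicates 1 to 4 with probe A_44_P1160074. These values follow the brightness of the arrays as a whole, and after scaling the probe lay at 2.05 ± 0.06. Its second probe, A_64_P123879, which carries the same accession, had 1949, 1582, 2720 and 1767 units on replicates 1 to 4 and lay at 2.03 ± 0.09. Replicate 3 was highest with both probes, by 0.09 and 0.12 above their means. On the other arrays the deviations ran from -0.06 to 0.00 for A_44_P1160074 and from -0.11 to 0.00 for A_64_P123879. The software's own error for each of these spots was about 10% of the signal, and the lowest and highest scaled level differed by 1.11 and 1.17 times.

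Xrcc6, which codes for Ku70, was detected on all 4 arrays with both of its probes. Probe A_64_P038132 had 2116, 1925, 2573 and 2129 units on replicates 1 to 4, and lay at 2.18 ± 0.10. Probe A_42_P527852 had 173, 129, 190 and 136 units on replicates 1 to 4 and lay at -1.63 ± 0.13. The probes of this gene did not order the arrays alike: A_64_P038132 was highest on replicate 2 (0.13 above its mean) and lowest on replicate 3 (-0.11), whereas A_42_P527852 was highest on replicate 1 (0.16) and lowest on replicate 4 (-0.14). No array stood out for the gene, and the lowest and highest scaled level differed by 1.18 and 1.23 times.

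The promoters of the Ku pair are shown because both transcripts were steady on every array, as was the detected Brca2 probe (SD 0.11). The start regions of the Ku pair are unlike in base content, and no link of base content to the values was tested. The windows hold 250 bases before and 50 after 1 start per gene, from RefSeq on GRCr8. Xrcc5 lies at chr9:81404257-81404556 and Xrcc6 at chr7:115422934-115423233, both on the plus strand. The start used need not be the outer end of the gene. The annotated Xrcc6 gene begins at 115423026, so most of its window lies inside the gene. Capitals mark the GC box GGGCGG and the CCAAT box, searched on both strands, and no marked match overlapped another.
Xrcc5: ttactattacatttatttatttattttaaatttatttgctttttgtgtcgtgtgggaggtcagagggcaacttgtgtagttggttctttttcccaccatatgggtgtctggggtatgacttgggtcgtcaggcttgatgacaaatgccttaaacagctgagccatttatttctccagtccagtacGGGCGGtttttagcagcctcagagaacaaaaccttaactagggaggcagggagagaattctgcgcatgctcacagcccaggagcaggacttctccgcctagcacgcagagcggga
Xrcc6: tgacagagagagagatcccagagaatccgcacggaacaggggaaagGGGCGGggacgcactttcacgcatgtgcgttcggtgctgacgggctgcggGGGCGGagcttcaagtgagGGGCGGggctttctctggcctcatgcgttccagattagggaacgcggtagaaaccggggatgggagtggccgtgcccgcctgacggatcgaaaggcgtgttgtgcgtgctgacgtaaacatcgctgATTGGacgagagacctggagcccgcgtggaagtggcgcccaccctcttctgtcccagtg
The Xrcc6 window was 62.7% G and C with 3 GC boxes and 1 CCAAT box, and the Xrcc5 window 46.3% with 1 GC box, where the median of 33469 rat promoter windows was 51.7%. The start used for Desi1 lies 256 bases upstream of that used for Xrcc6 on the opposite strand, and the Desi1 transcript was detected on all 4 arrays too. The arrays measured transcripts and not promoters, so these letters are background to the values.

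Of the checkpoint kinases, Chek2 was the one detected throughout. Its probe A_44_P1084974 had 73.3, 64.7, 126 and 84.7 units on replicates 1 to 4, and lay at -2.51 ± 0.18. Replicate 3 was the highest after scaling, 0.23 above the mean, and replicate 1 the lowest, at -0.20, a range of 1.35 times. The software's error was 10.4% to 11.4% of the signal.

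Chek1, the effector kinase gene on the ATR side, was not well above background on any array. Its only probe, A_43_P13069, had 17.4, 4.65, 13.2 and 8.32 units on replicates 1 to 4. The weaker flag was set on all 4 arrays, and of 308 negative control spots per array 0, 7, 0 and 2 were as bright or brighter on replicates 1 to 4. The software error was between 29.9% and 79.2% of the signal, and the SD of 0.66 is a spread of signals near background. The probe was printed at column 22. In columns 1 to 72, a range known from an earlier look at these arrays, replicate 1 had more detected probes over 0.5 below their mean (5.22% of those with 1 spot, against 0.571% beyond). Chek1 is not among these detected probes, and its own scaled level was highest on replicate 1, 0.85 above its mean. The part of position in its values was not tested.

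Atm, the kinase gene that answers to broken ends, was near or at background with both probes. Probe A_44_P1108230 had 6.94, 3.75, 20.3 and 16.6 units on replicates 1 to 4. Replicate 3 alone was marked well above background, and the weaker flag was set on all 4. On replicates 3 and 4, 0 and 1 of the 308 negative controls reached the probe's signal, against 4 and 34 on replicates 1 and 2. Probe A_44_P441166, designed on another transcript accession of the gene, had 3.29 to 5.13 units and was detected on no array. There 170, 158, 151 and 9 negative controls were as bright on replicates 1 to 4, so it lay inside the range of the controls on every array.

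The start regions of Atm and Chek1 are shown because these were the 2 measured genes not detected on all arrays, and because they alone of the 7 windows found held a match to the E2F motif. Windows were found for Atm, Atr, Brca1, Brca2, Chek1, Xrcc5 and Xrcc6, so the unmeasured Atr is among them and Chek2 and Prkdc were not searched. E2F factors drive genes of S phase. The words searched were TTTCCCGC, TTTGCCGC, TTTCGCGC and TTTGGCGC on both strands, in capitals below. The Atm window lies at chr8:62828580-62828879 and that of Chek1 at chr8:44629794-44630093 of GRCr8, both on the minus strand, per RefSeq. On that strand the annotated Atm gene begins at 62829040, so its whole window, with the E2F match, lies inside the gene. That of Chek1 begins at 44629867, within its window.
Atm: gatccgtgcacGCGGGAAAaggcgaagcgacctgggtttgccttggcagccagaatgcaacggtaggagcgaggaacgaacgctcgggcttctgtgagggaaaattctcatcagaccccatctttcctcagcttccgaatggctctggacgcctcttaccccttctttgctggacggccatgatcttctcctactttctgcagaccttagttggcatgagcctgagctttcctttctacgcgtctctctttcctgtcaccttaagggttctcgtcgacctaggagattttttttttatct
Chek1: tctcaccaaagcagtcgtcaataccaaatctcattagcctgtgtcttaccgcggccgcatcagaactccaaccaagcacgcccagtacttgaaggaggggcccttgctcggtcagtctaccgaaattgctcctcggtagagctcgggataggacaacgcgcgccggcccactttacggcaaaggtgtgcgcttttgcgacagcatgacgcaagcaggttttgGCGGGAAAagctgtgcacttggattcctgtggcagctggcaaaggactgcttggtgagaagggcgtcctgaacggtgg
A match to one of these words was present in 2.14% of all 33469 windows. GC boxes were found in 3 of the 7 windows (Atr, Xrcc5 and Xrcc6; 33.1% of all windows) and CCAAT boxes in 3 (Atr, Brca1 and Xrcc6; 37.5%). The core word of NRF1, GCGCANGCG, was found in 0 of 7 (5.8%). Npat, whose start as used here lies 556 bases upstream of that used for Atm on the opposite strand, was detected on 0 arrays. A match describes letters only.

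Brca1 and Brca2, both genes of homologous recombination, were each detected with 1 probe and not with the other. Among all 2983 genes with 2 probes, exactly 1 was detected on all 4 arrays in 22% of cases. Brca2 probe A_64_P048136 had 254, 244, 333 and 272 units on replicates 1 to 4 and lay at -0.81 ± 0.11. Replicate 2 was the highest after scaling (0.14 above the mean) and replicate 1 the lowest (-0.11). Probe A_44_P1111316 of the same accession had 2.93, 3.47, 6.21 and 4.01 units on replicates 1 to 4 and was detected on none, with 250, 185, 3 and 71 of 308 negative controls as bright. Probes of 1 accession thus gave opposite answers on detection.

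Among the probes detected on all 4 arrays, that of Brca1 differed most between arrays. Probe A_44_P1110214 had 38.0, 53.0, 135 and 68.3 units on replicates 1 to 4, and lay at -2.87 ± 0.61. Scaled levels were -3.66, -2.87, -2.18 and -2.77, so replicate 1 was 0.79 below the mean, replicate 3 was 0.69 above it, and the other arrays lay between. From the lowest to the highest this was 2.78 times, and the software's error was 14.4% on replicate 1 and 10.3% on replicate 3. The SD was 2.40 times limma's prior SD for probes of like level, with an unadjusted p of 0.00709 by limma's prior variance. It did not pass after adjustment over 14518 detected probes (adjusted p = 0.394 by the same test). Of those probes 0.207% were called and 6.74% had an unadjusted p under 0.05. Without replicate 2 it passed narrowly (adjusted p = 0.0453 by limma's prior variance). In that setting 157 of 14903 detected probes were called, against 30 with all arrays. Without each of the others it did not pass. With replicate 4 left out 17 probes were called, and the adjusted p of Brca1 was 0.427 by the same test at a like SD. The SD was 0.37 without replicate 1, 0.74 without replicate 2, 0.49 without replicate 3 and 0.74 with replicate 4 left out, and 0.32 with the normexp background correction. Over all alternatives the adjusted p of this probe by limma's prior variance ran from 0.0453 to 0.946.

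The Brca1 probe lay at column 48 of the array, inside columns 1 to 72, where replicate 1 held more low spots than elsewhere (5.22% of detected probes with 1 spot over 0.5 below their mean, against 0.571% beyond). The part of position in its low value there was not tested. On replicate 3, where the Brca1 probe was high, 1.84% of such probes in those columns were that low. The share of high spots was not counted, so position was not examined for the high value. The second probe of the gene, A_44_P294650, designed on another transcript accession, was detected on no array (3.60, 3.68, 5.28 and 4.04 units on replicates 1 to 4). Of 308 negative controls, 98, 68, 5 and 67 were as bright on replicates 1 to 4, so it gives no second reading. Detection and spread of Brca1 thus rest on 1 probe of 1 transcript accession. Nbr1, whose start as used here lies 968 bases upstream of that used for Brca1 on the opposite strand, was detected on all 4 arrays.

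**Figure D2:**
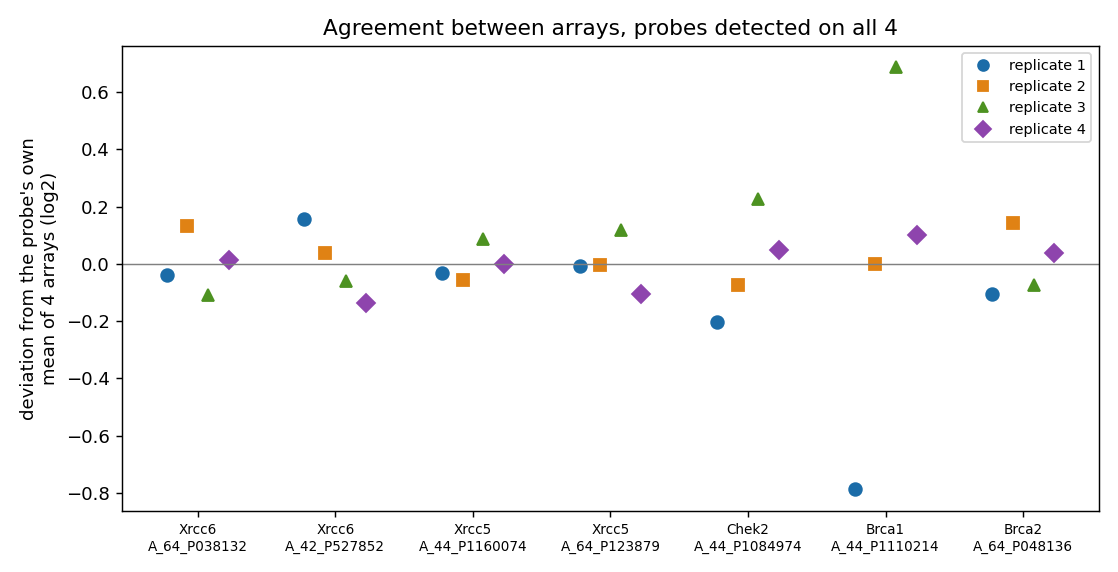
Deviation of each of the 7 probes detected on all 4 arrays from its own mean over the arrays, in log2 units, with colour and shape for the replicate. The 6 Ku, Chek2 and Brca2 probes stay within 0.23 of their mean, and Brca1 reaches -0.79 on replicate 1 and 0.69 on replicate 3.

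Over the 7 detected probes the arrays agreed closely. The median SD was 0.11, against 0.17 over all 14518 detected probes, which are not matched to these in level. The lowest SD was 0.06 for Xrcc5 and the highest 0.61 for Brca1. Set against limma's prior SD for probes of like level, 6 probes had 0.41 to 0.77 of it and Brca1 2.40 times. An SD below this prior was not particular to these probes. Near a level of 2.485 the median of all detected probes was 0.139, where the prior SD of both Xrcc5 probes was 0.155. None of the 7 was called variable by limma's prior variance after adjustment (0.207% of all detected probes were). An unadjusted p under 0.05 was found for 1 of them (6.74% of all detected probes). The median absolute difference between a pair of arrays ran from 0.10 (replicates 2 and 4) to 0.21 (replicates 2 and 3) over these probes. Over all detected probes, again not matched in level, it ran from 0.14 to 0.23. The widest difference of a single probe among the 7 was 1.48, for Brca1 between replicates 1 and 3. Replicate 1 was the lowest array for 3 of the 7 probes (20.3% of all detected probes) and replicate 3 the highest for 4 (21.1%), so no array was low or high for all of them. By Dixon's ratio of gap to range, 0 of the 7 had an array apart from the others, against 5.49% of all detected probes.

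**Figure D3:**
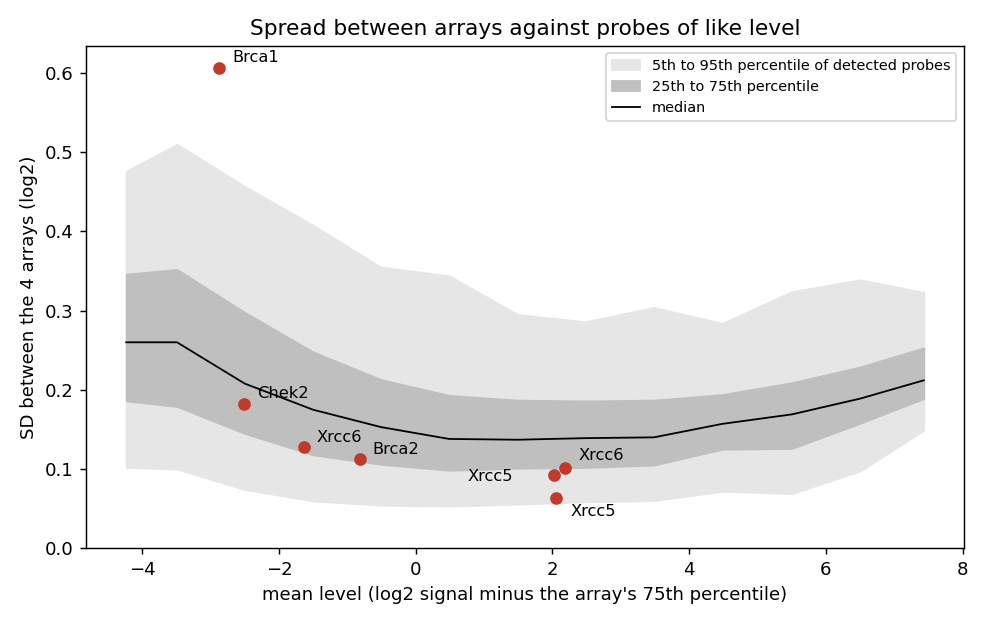
SD between the 4 arrays (log2) of the 7 detected probes, as red points, against their mean level, over bands for all 14518 detected probes grouped by level. The Brca1 point lies above the 95th percentile band, and the other 6 lie at or below the median line.

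Most measured partners of these proteins were detected as well. Of 79 genes on 10 lists by role, 61 had a probe, and 52 of these (85.2%) were detected on every array, where the share of all genes was 45.7%, while 1 was on 2 arrays and 8 on none. None of the 52 was called variable by limma's prior variance after adjustment, where 0.207% of all detected probes were. Mdm2 was called without replicate 2, and the median SD of the 52 was 0.15. The lists describe these cultures and were not tested as sets.

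Among sensors and mediators, the MRN complex, which tethers broken ends and activates ATM, was detected in 2 of 3 genes. Nbn had the larger SD of these (-3.03 ± 0.28), and Rad50 was not well above background on any array. Of the chromatin mediators around the break, 5 of 6 measured were detected, with the ubiquitin ligase gene Rnf168 at -2.04 ± 0.25 and the mediator gene Tp53bp1 on no array. Of the genes that activate ATR 6 of 7 were detected, with Etaa1 on none. Rad17, which loads the 9-1-1 clamp, lay at -4.06 ± 0.53. Of the RPA subunits, which coat single-stranded DNA, both measured were detected, with Rpa3 at 1.34 ± 0.21.

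Of the end joining partners of Ku, 7 of 9 measured were detected. The 2 others were Lig4 and Xrcc4, whose products together seal the ends, each with 2 probes and none detected. Polm, a polymerase gene that fills the gaps, lay at 3.92 ± 0.38 and had the largest SD of the list (2.27 times the prior SD, unadjusted p = 0.0111, adjusted p = 0.488 by limma's prior variance). It had 6492, 7658, 6764 and 8296 units on replicates 1 to 4. The scaled level was lowest on replicate 3 and highest on replicate 2.

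Most genes of the recombination side were detected. All 9 measured partners of BRCA1 and BRCA2 were, with the resection gene Rbbp8 at -1.89 ± 0.35. Of 7 measured recombination helpers, 5 were detected on all arrays, Rad54b on 2, and the meiotic gene Dmc1 on none. The largest SD of this list was that of Xrcc2 (-1.06 ± 0.39), which was lowest on replicate 1. Of 6 measured Fanconi anaemia genes 5 were detected and Fancb was not, and the conjugating enzyme gene Ube2t lay at 0.20 ± 0.42. Of 4 measured genes of resection and end processing 3 were detected, with the ligase gene Lig3 at -0.54 ± 0.14 and the polymerase theta gene Polq on none.

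All 8 measured checkpoint effectors were detected. Mdm2, the gene of the ligase that degrades p53, lay at -1.34 ± 0.53, 2.76 times the prior SD (unadjusted p = 0.00216, adjusted p = 0.223 by limma's prior variance). It was lowest on replicate 1, by 0.75, and highest on replicate 3. The probe had 2 spots per array, and the low value rests on 1 of them. The spot at column 36 had 57.7, 178, 350 and 197 units on replicates 1 to 4, and the spot at column 141 had 220, 164, 328 and 205 units. Neither was marked as an outlier. With the spot at column 141 alone, an alternative chosen after seeing the data, Mdm2 lay at -1.11 ± 0.15, its deviation on replicate 1 was -0.01, and the variance test gave an adjusted p of 0.995 by limma's prior variance.

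**Figure D4:**
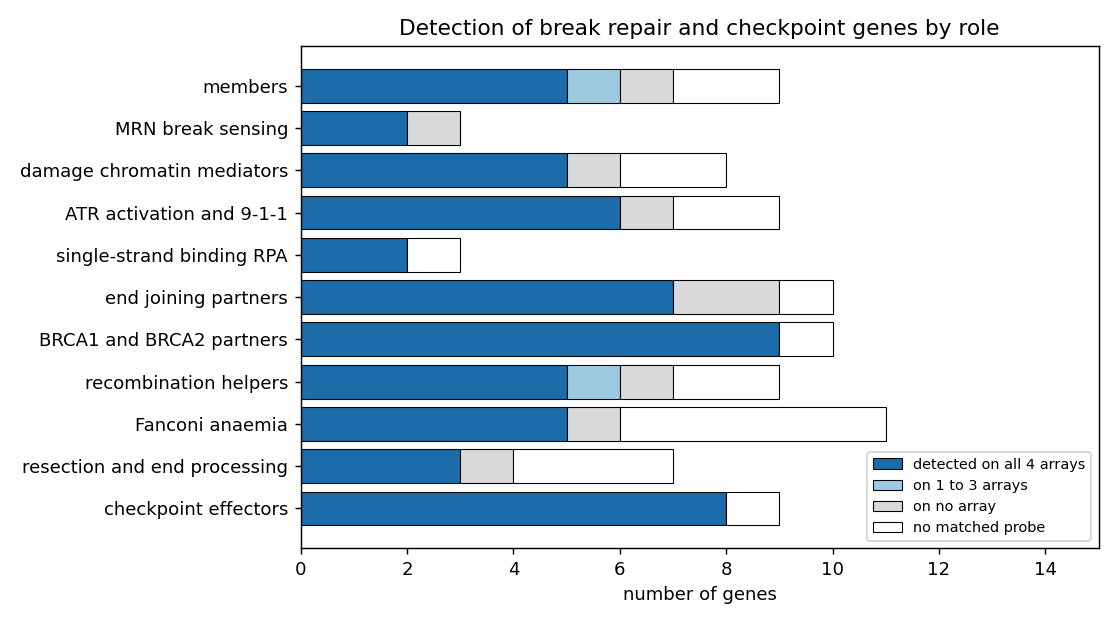
Number of genes detected on all 4 arrays, on 1 to 3 arrays, on no array, or with no matched probe, for the 9 listed genes (top) and the 10 lists of partner genes by role. The RPA, BRCA1 and BRCA2 partner and checkpoint effector lists have no measured gene that was missed.

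The companion genes whose 4 deviations lay nearest to those of Brca1 were sought by Euclidean distance over the 4 arrays, among 52 detected companions. Rad17 was the nearest at a distance of 0.19, then Mdm2 at 0.26 and Ube2t at 0.44, where the Brca1 pattern itself has a length of 1.05. All 3 lay below their mean on replicate 1, by 0.70 for Rad17, 0.75 for Mdm2 and 0.62 for Ube2t. Mdm2 and Ube2t were printed at columns 36 and 11, in the part of replicate 1 with more low spots, and Rad17 at column 91, outside it. Rad17 was dim on replicate 1, with 17.7 units and a level of -4.76. The lowest level of any detected probe on that array was -5.15. With its spot at column 141 alone, Mdm2 lay at a distance of 0.94 from Brca1. With 4 arrays this likeness is a description.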

How the data were processed

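Total RNA (integrity number above 7.5) of 4 exposed cultures was labelled with Cy3 from 100 ng and measured on 1-colour arrays, per the labels' protocols. Per the file headers, the deposited spot intensity was processed by the authors with Agilent Feature Extraction (version 11.0.1.1), which subtracted background and detrended each array, with no scaling from array to array. The deposited error, median spot and background signals (intensity) and the detection and outlier flags come from the same software, per the file headers. All 4 arrays lay on 1 slide.

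Each array had 58717 non-control spots of 45598 probes. Spots with an outlier flag (634 to 669) were left out, and spots of 1 probe averaged on the log2 scale after subtraction of the log2 75th percentile. Symbols came from the RefSeq table of GRCr8 through accessions without versions, for 21109 probes. The arrays' grid names rn4, so probes are given no coordinates, and the promoter windows carry those of GRCr8. A probe was detected where over 0.5 of its spots carried the flag, and a gene where any probe was. A companion gene was represented by its brightest probe.

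For variation between arrays, limma (version 3.58.1, under R 4.3.3) gave the prior: each probe's variance over 4 arrays was divided by a prior variance trended on level with robust estimation (16.1 prior degrees of freedom), the upper tail of F was taken, and p-values were adjusted by the Benjamini-Hochberg method over all 14518 detected probes, with calls at 0.05. The number of arrays limits the precision, and p-values measure the spread between these cultures and their arrays. Named companion genes were the one with the largest SD of each list, those detected on no array, any called variable, and the 3 nearest to the member with the largest SD. A further gene, taken out of the companion lists, is not reported here. The members, lists and tests were chosen with earlier results of these data known. Alternatives were another background correction, scaling, flag, filter, prior and unit of test, each replicate left out, and, chosen after seeing the data, probes with every spot beyond column 72 and the Mdm2 spot there.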

Additional observations from a re-analysis of the deposited data

Results flagged for a closer look

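Of 52 detected companion genes, 3 (5.77%) had an array far from the other 3, above Dixon's 95% critical value for 4 samples. In Xrcc2 (probe A_44_P1086090) the gap between replicate 1 and the nearest array was 0.844 of the whole range. The levels were -1.64, -0.92, -0.78 and -0.89 on replicates 1 to 4, and the probe lay at column 20. Aptx (0.843, column 24) stood 0.25 above its mean on replicate 1, and Babam1 (0.853, column 57) deviated by -0.29 from its mean on replicate 3. Both are named for this ratio, after their values were seen. Chance flags about 1 in 20 groups, and 5.49% of all detected probes were so. None of the 7 detected probes of the listed genes was.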

How the results depend on the processing

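The count of 5 listed genes detected on all arrays was 5 without each replicate in turn (lowest and highest 5) and with outlier spots kept, 6 where 1 array sufficed and 7 with the weaker flag. With probes beyond column 72 only, 4 of 6 listed genes and 30 of 39 companion genes were detected, against 52 of 61 companions with all probes. Fewer companion genes have a probe there, and the detected share of those was lower as well. Without each replicate the companion count was 52 (lowest and highest). The number of listed probes called variable by limma's prior variance was 0, and 0 to 1 without each replicate, the call being Brca1 without replicate 2. It was 0 with normexp, quantile normalization, the median of detected probes, outlier spots kept, all probes, the brightest probe per gene and a prior without trend, with 1 probe at an unadjusted p under 0.05 in each. Among companions it was likewise 0 to 1, Mdm2 being called without replicate 2 (adjusted p = 0.0172, and 0.991 with its spot at column 141 alone). The cause was not tested for Brca1, which has 1 spot. Calls over all detected probes depended on the setting: 30 as given, 361 with normexp on median signals, 1 after quantile normalization, 44 with the median of detected probes, 226 with all probes, 1 without the trend, and 9 to 157 without each replicate. The median SD of the 7 detected probes ran from 0.0963 (normexp) to 0.126 (quantile), and from 0.112 to 0.125 without each replicate. Scaling to detected probes moved the median level by 0.72, a shift of scale. Normexp moved the median by 0.116, but raised dim probes by more and lowered those of Xrcc5. Atm A_44_P441166 lay at -3.03 (-6.96 as given), Chek1 at -2.85 (-5.63), Brca1 A_44_P1110214 at -2.01 (-2.87) and Chek2 at -1.80 (-2.51), while Xrcc5 lay at 1.87 and 1.91 (2.05 and 2.03). The printed levels of dim probes thus depend on the background correction. Probes near background (Atm, Chek1 and the dim probes of Brca1 and Brca2) are limited by signal over background. No paired analysis was possible because there is 1 group.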
